A study of Mus musculus with 6 samples.

Results

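The citric acid cycle and the reactions that feed it were followed through 33 genes, among 38887 gene identifiers measured. They were taken by symbol from a list of pyruvate entry, cycle, branched-chain and glutamate and aspartate enzymes. This list was chosen with earlier results of these data known, so counts over it are not independent of those results. Bone marrow (BM) Ly6G+ cells were compared between naive mice and mice bearing LL2 tumors, 1 week and 3 weeks after tumor cells were given, with 2 libraries in each of the 3 groups. LL2 is a mouse lung carcinoma line. In the study it carried luciferase and was injected intravenously, so that tumors formed in the lung, and the cells were selected with magnetic beads against Ly6G. The study's reporting notes name C57BL/6 mice. The sample labels give neither an age nor a sex, and name no genetic change in any group.

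The cycle oxidises acetyl-CoA in the mitochondrial matrix and hands its electrons to the respiratory chain. Pyruvate enters through a 2-subunit carrier and the pyruvate dehydrogenase complex, which kinases switch off and phosphatases switch on, while glutamate, aspartate and branched-chain amino acids join as 2-oxoglutarate, oxaloacetate, acetyl-CoA or succinyl-CoA. Mature neutrophils are known for few mitochondria and a strong reliance on glycolysis, and granulocyte precursors in the BM for more mitochondrial metabolism.

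Library totals lay between 11994158 and 14127919 counts, and 3 counts, the floor of detection used, were equal to 0.200 to 0.246 CPM (counts relative to the library total after TMM scaling). Such limits cover counting error only. Pearson's r of log2 CPM between the libraries of a group, across genes, which are not independent replicates, was between 0.977 and 0.980. A gene was called when its adjusted p from edgeR's quasi-likelihood test was under 0.05. The labels call the libraries replicate mice of a group, and p-values measure the spread between these libraries only.

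The neutrophil label was checked against 12 markers, whose summed level lay between 277731 and 338564 CPM. S100a8, S100a9 and Csf3r, the receptor of granulocyte colony-stimulating factor, were abundant, but Ly6g itself lay between 0.491 and 2.14 CPM. Of the 12, 1 was called higher at 1 week, and 2 were called higher and 4 lower at 3 weeks against naive mice. Other markers moved with the 3-week group. The summed level of 6 early granulocyte genes, of which Mpo, Elane, Prtn3, Ctsg and Ms4a3 rose and Cebpa fell, went from 57.6 to 64.4 CPM in naive mice and from 66.1 to 104 CPM at 1 week to between 260 and 359 CPM at 3 weeks. That of 6 cell cycle genes was between 468 and 488, between 393 and 459 and between 250 and 261 CPM, with 4 lower at 3 weeks. That of 9 B lineage genes was between 44.9 and 55.4, between 43.0 and 54.1 and between 12.1 and 13.7 CPM, and all 9 fell at 3 weeks. The 7 basophil, eosinophil and mast cell genes summed to between 20.1 and 23.6, between 41.2 and 45.8 and between 15.6 and 18.2 CPM, with 3 higher at 1 week and 2 lower at 3 weeks. Erythroid genes (7) summed to 566 CPM in 3-week library 1 and 240 CPM in 3-week library 2, against 440 to 573 CPM in the other groups, and 1 fell at 3 weeks. Monocyte and macrophage genes (7) lay between 121 and 172 CPM over all libraries, with 1 higher and 1 lower at 3 weeks. T and NK genes (7, of which 3 were tested) lay between 8.61 and 24.4 CPM, with 1 higher and 1 lower at 3 weeks, and Trac was at 0 in all 6 libraries. Megakaryocyte genes (6) summed to between 189 and 201 CPM in naive mice and between 132 and 149 CPM at 3 weeks, with 3 lower at 3 weeks and 1 at 1 week. In these bulk samples fewer cells of a type and less RNA per cell cannot be told apart, and the part of these markers in the results that follow was not tested.

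**Figure D1:**
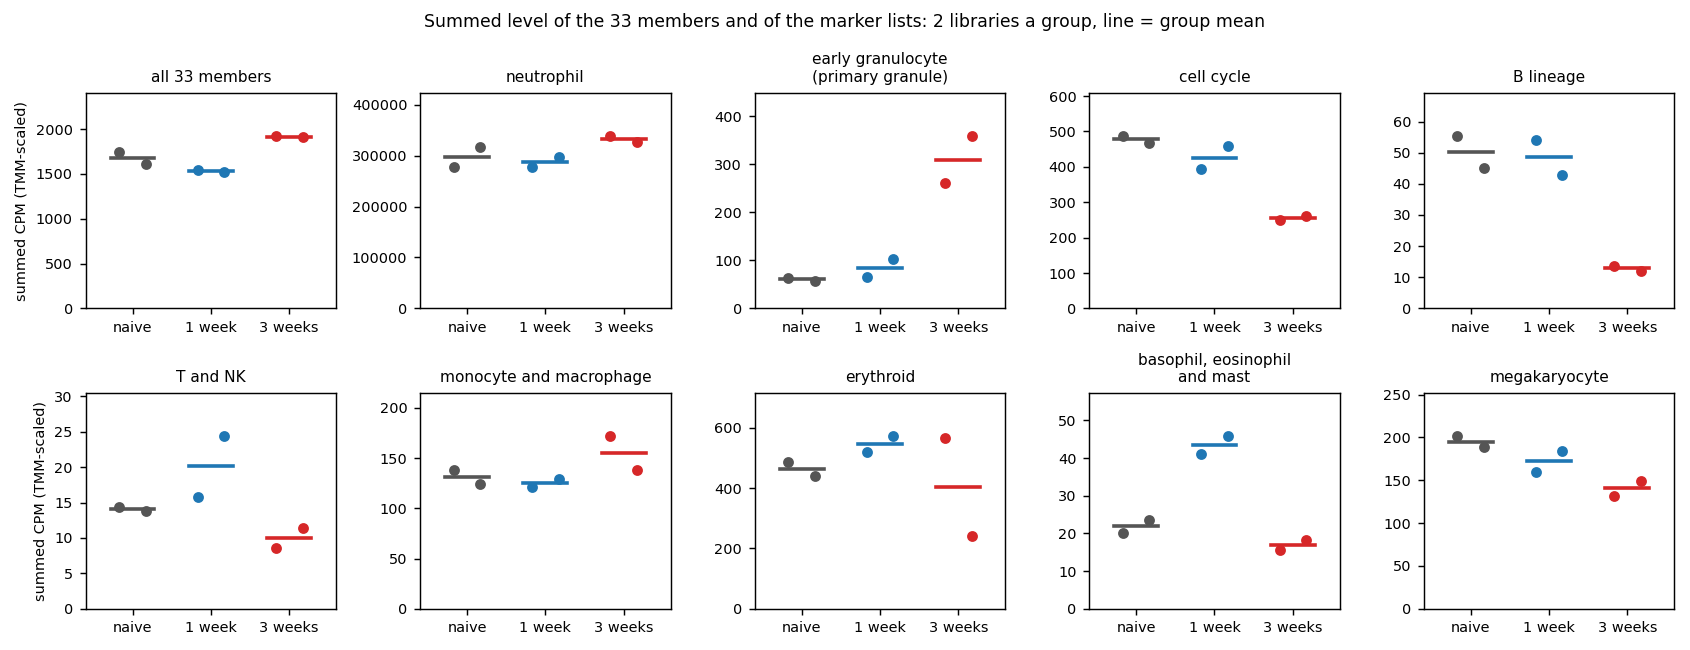
Summed TMM-scaled CPM of the 33 citric acid cycle and fuel entry genes and of the 9 marker lists, each panel with its own axis from 0. Points are the 2 libraries of a group and lines their mean. The summed level of the 33 genes was lowest at 1 week, at 1518 and 1542 CPM, and highest at 3 weeks, at 1908 and 1924 CPM. Mdh2 alone went from 734 and 604 CPM in naive mice to 472 and 489 CPM at 1 week. Of the 32 tested members, 20 had a log2 fold change above 0 at 1 week against naive mice and 12 below 0. Early granulocyte markers rose and B lineage and cell cycle markers fell at 3 weeks.

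Of 32 tested members, 1 (3.1%) was called higher and 2 (6.25%) lower at 1 week against naive mice. Mpc2, a subunit of the mitochondrial pyruvate carrier, rose, and Mdh2, the mitochondrial malate dehydrogenase, and Dbt, the acyltransferase core of the branched-chain ketoacid dehydrogenase, fell. Over all 12259 genes tested, 4.23% were called higher and 3.76% lower in this comparison. Both 1-week libraries lay above both naive libraries for 9 members (28.1%) and below them for 5 (15.6%), against 27.2% and 26.1% of all genes. Without naive library 1, naive library 2, 1-week library 1 or 1-week library 2 no member was called higher, and without naive library 1 or 1-week library 2, 1 was called lower. The median log2 fold change of the members was 0.06, beside 0.01 over all genes.

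At 3 weeks against naive mice 8 members rose, namely Pdk1, Cs, Acly, Suclg1, Bckdha, Glud1, Got1 and Got2, and Dbt fell. That is 25.0% of those tested called higher, beside a background of 12.0% higher and 9.42% lower over all genes. Libraries did not overlap for 17 members higher and 3 lower, beside 32.1% and 27.5% of all genes. The log2 fold change was above 0 in 26 of the 32, with a median of 0.28, beside 0.03 over all genes. Without naive library 1 or naive library 2, 4 members were called higher, without 3-week library 1, 5, with a median of 0.15, and without naive library 1 none was called lower.

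At 3 weeks against 1 week 8 members rose, namely Pdk1, Pdk3, Mdh2, Bckdha, Dbt, Glud1, Got1 and Got2, and Mpc2 and Fh1 fell. The background was 12.9% higher and 9.57% lower. Libraries did not overlap for 19 members higher and 6 lower, beside 31.5% and 32.3% of all genes, and the median log2 fold change was 0.23, beside -0.02 over all genes. Without 1-week library 1, 3 members were called higher, without 1-week library 2, 4, and without 3-week library 2, 5, and 1 was called lower without 1-week library 1, 1-week library 2 or 3-week library 1. The 3 comparisons share libraries, so their counts are not independent. In all, 13 members were called in at least 1 comparison, Dbt was the 1 called in all 3, and 19 tested members were called in none. Pcx, pyruvate carboxylase, was removed by the filter on low counts and not tested.

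**Figure D2:**
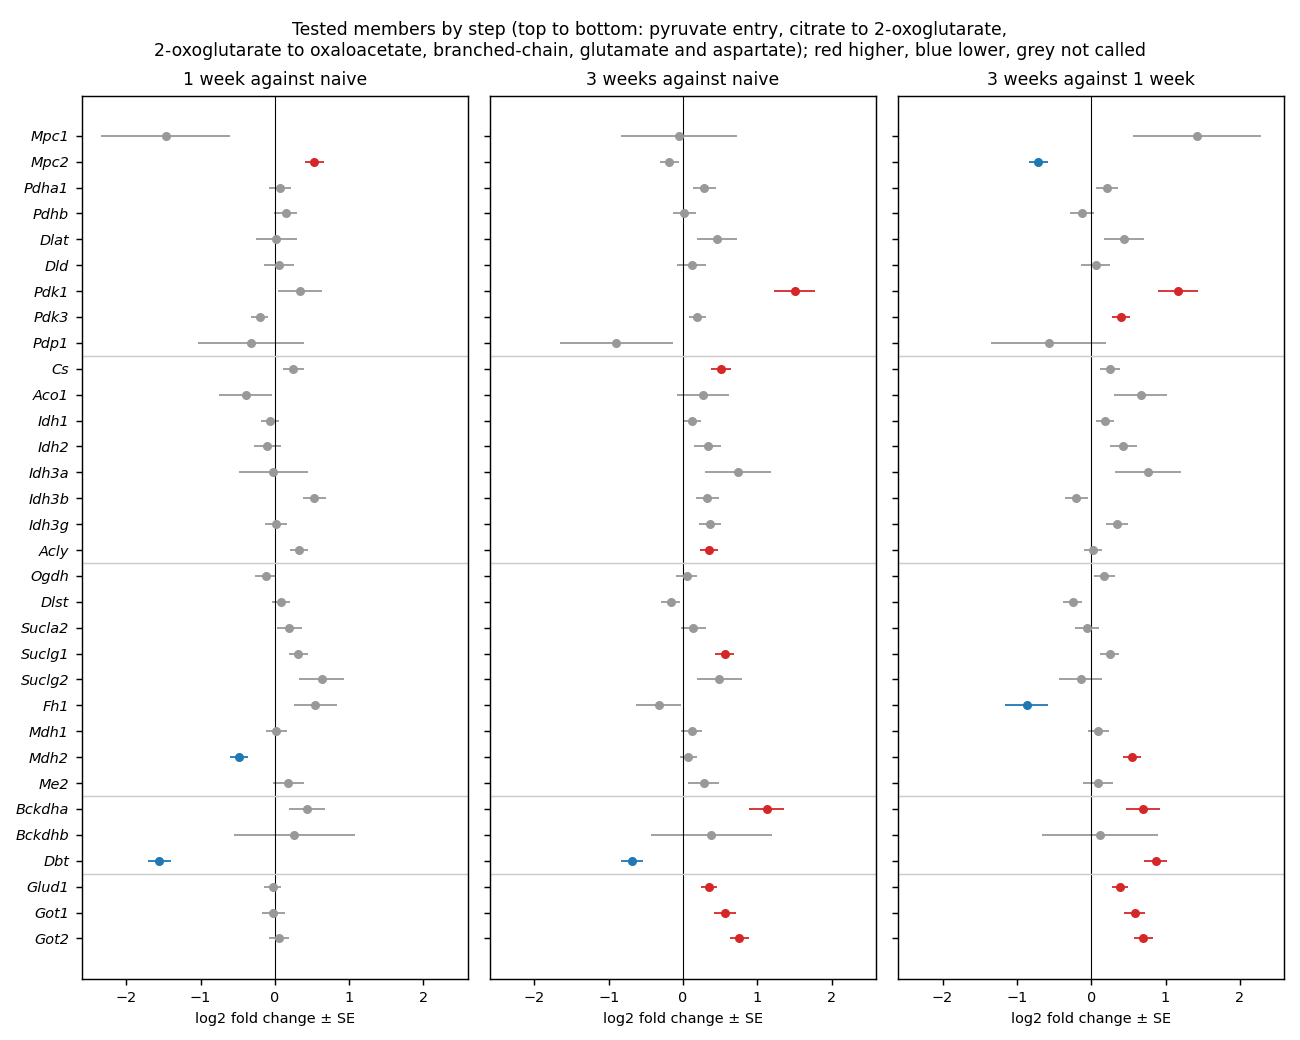
Log2 fold change of the 32 tested genes in the 3 comparisons, with bars of 1 SE from the edgeR fit, ordered from top to bottom by step. Red points were called higher, blue lower and grey were not called; at 1 week 3 points are coloured, and at 3 weeks the 3 glutamate and aspartate genes at the bottom are all red in both comparisons.

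The 3 glutamate and aspartate enzymes rose together at 3 weeks, in both comparisons. Over all genes 12.0% were called higher at 3 weeks against naive mice and 12.9% against 1 week. The 3 were not called at 1 week, when 0 of the 3 had an unadjusted p under 0.05 and DESeq2 called 0. Got2, the mitochondrial aspartate aminotransferase (chr8:95864134-95888547, GRCm38), had 68.7 and 83.6 CPM in naive mice, 77.4 and 81.1 CPM at 1 week, and 136 and 121 CPM at 3 weeks. Both 3-week libraries were above all others, while the naive and 1-week libraries overlapped. Its log2 fold change was 0.76 ± 0.13 (SE; adjusted p = 0.00109) against naive mice and 0.70 ± 0.13 (adjusted p = 0.00175) against 1 week. Got1, the cytosolic aspartate aminotransferase (chr19:43499752-43524605), had 26.3 and 21.7 CPM in naive mice, 23.6 and 23.8 CPM at 1 week, and 38.3 and 32.6 CPM at 3 weeks. Again both 3-week libraries were above all others, and the 1-week values lay inside the naive range. Its log2 fold change was 0.56 ± 0.15 (adjusted p = 0.0163) against naive mice and 0.58 ± 0.15 (adjusted p = 0.0124) against 1 week. Glud1, glutamate dehydrogenase (chr14:34310727-34345265), had 218 and 224 CPM in naive mice, 224 and 209 CPM at 1 week, and 273 and 292 CPM at 3 weeks. Its rise was smaller, at 0.35 ± 0.11 (adjusted p = 0.0355) against naive mice and 0.38 ± 0.11 (adjusted p = 0.0231) against 1 week. Together these enzymes link glutamate and aspartate to 2-oxoglutarate and oxaloacetate, and their summed level was between 313 and 330 CPM in naive mice, between 314 and 325 CPM at 1 week, and 448 and 445 CPM at 3 weeks.

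The Got2 calls held without any 1 library. The Got1 call against naive mice did not hold without naive library 2 (adjusted p = 0.115) or 3-week library 1 (0.108), and that against 1 week not without 1-week library 1 (0.0905), 1-week library 2 (0.0853) or 3-week library 1 (0.0874). The Glud1 call against naive mice was lost without each library in turn (adjusted p between 0.0642 and 0.178), and that against 1 week without 1-week library 1 (0.0945), 1-week library 2 (0.229) or 3-week library 2 (0.107). Of Got2's 50-base stretches 16.8% occur in the pseudogene Got2-ps1, which was at 0 counts in all libraries. Of Glud1's stretches 6.49% occur in other annotated genes, for which no counts were found. Whether these other genes were measured at 0 or not measured was not checked.

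The bases ahead of the transcript start of Got1 and Got2, which moved together, and of the pyruvate dehydrogenase kinases Pdk1 and Pdk3, which are described next, are shown from RefSeq on GRCm38.p6, 5′ to 3′ on the strand of the gene. Each is the part of the 250 bases before the RefSeq start that lies in no annotated exon, and capitals mark CG dinucleotides.
Got1, chr19:43524606-43524855, minus strand: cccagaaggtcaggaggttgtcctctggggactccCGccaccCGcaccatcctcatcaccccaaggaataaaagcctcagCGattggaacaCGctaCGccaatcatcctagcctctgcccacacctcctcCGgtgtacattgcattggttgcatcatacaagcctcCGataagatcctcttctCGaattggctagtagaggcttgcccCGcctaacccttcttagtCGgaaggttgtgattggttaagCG
Got2, chr8:95888548-95888651, minus strand: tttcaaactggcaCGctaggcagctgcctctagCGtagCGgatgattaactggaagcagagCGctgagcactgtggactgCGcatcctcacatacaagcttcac
Pdk1, chr2:71872974-71873223, plus strand: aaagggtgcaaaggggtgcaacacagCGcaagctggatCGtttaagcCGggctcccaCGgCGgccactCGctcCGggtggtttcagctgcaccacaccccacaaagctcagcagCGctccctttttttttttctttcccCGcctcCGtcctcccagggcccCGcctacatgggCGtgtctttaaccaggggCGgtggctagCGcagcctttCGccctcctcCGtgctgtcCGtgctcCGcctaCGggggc
Pdk3, chrX:93832202-93832400, minus strand: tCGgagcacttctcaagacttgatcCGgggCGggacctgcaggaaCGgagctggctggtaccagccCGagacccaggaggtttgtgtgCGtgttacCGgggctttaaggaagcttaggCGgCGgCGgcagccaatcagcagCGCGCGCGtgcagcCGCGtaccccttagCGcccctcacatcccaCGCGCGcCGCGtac

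The Got1 stretch holds 11 CG in 250 bases and is 54.4% G and C, and the Got2 stretch holds 5 CG in 104 bases. The Pdk1 stretch holds 19 CG in 250 bases (64.0% G and C) and the Pdk3 stretch 22 CG in 199 bases (66.3%). For Pdk1 RefSeq gives 2 starts, and the stretch shown belongs to the first. The 300-base window of that start is 66.0% G and C, and that of the other start 40.3%. RefSeq windows of 300 bases, from 250 before to 50 after the start, matched 29 of the 33 members by symbol, with 39 windows in all. Their median content was 20 CG and 61.7% G and C, beside 7 CG and 52.7% over all 32851 windows. Exact matches on either strand were counted for 5 motifs. The NRF1 motif and TCAAGGTCA (ERR) were in none of the 29 members and in 1.07% and 0.466% of 27025 genes. CACGTG (E-box) was in 2 members, Pcx and Ogdh, and 8.09% of genes. ACGTG, the core of the HIF element, which CACGTG also contains, was in 7 members (Pdhb, Pdk3, Pcx, Idh3g, Acly, Ogdh and Mdh1) and 21.8% of genes. CCGGAAGT (ETS) was in 1 member, Dlst, and 4.31% of genes. No promoter window was used for Pdp1, Idh3a, Me2 and Dbt.

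Among the pyruvate entry genes, the inhibitory kinase Pdk1 rose at 3 weeks and the carrier subunit Mpc2 rose at 1 week. Pdk1 (chr2:71873224-71903858) had 3.09 and 2.37 CPM in naive mice, 3.40 and 3.51 CPM at 1 week, and 6.90 and 8.61 CPM at 3 weeks. All 3 groups were apart, and the 3-week libraries were 2.83-fold the naive ones, or 1.50 ± 0.28 on the log2 scale (adjusted p = 0.00197), and 1.17 ± 0.27 (adjusted p = 0.00741) against 1 week. Pdk1 had 367 counts in all. Its second call did not hold without 1-week library 1 (adjusted p = 0.0533) or 3-week library 2 (0.0599).

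Pdk3, a second kinase of the same complex (chrX:93764607-93832201), had 70.7 and 72.9 CPM in naive mice, 60.9 and 63.8 CPM at 1 week, and 86.1 and 78.2 CPM at 3 weeks. The 3 groups did not overlap, with 1 week lowest, and only 3 weeks against 1 week was called, at 0.40 ± 0.12 (adjusted p = 0.0269). Without 1-week library 1 (adjusted p = 0.182), 1-week library 2 (0.134) or 3-week library 1 (0.152) that call was lost. Per kilobase of exon, Pdk3 stood at 28.1 ± 0.606 and Pdk1 at 0.351 ± 0.0647 CPM in naive mice (SD, n = 2), so that Pdk3 remained the more abundant kinase at 3 weeks, at 32.1 ± 2.18 against 0.997 ± 0.155.

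Mpc2 (chr1:165460637-165481214) had 72.1 and 75.1 CPM in naive mice, 114 and 98.6 CPM at 1 week, and 59.5 and 70.1 CPM at 3 weeks. The 1-week libraries stood above all others and the 3-week libraries below the naive ones. The log2 fold change was 0.53 ± 0.13 (adjusted p = 0.0245) at 1 week against naive mice, -0.71 ± 0.13 (adjusted p = 0.00148) at 3 weeks against 1 week, and -0.18 ± 0.13 (adjusted p = 0.351) at 3 weeks against naive mice. The call at 1 week was lost without naive library 1 (adjusted p = 0.17), naive library 2 (0.0758), 1-week library 1 (0.2) or 1-week library 2 (0.0601), while that between 3 weeks and 1 week held without any 1 library.

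Mpc1, the partner subunit in the carrier, had 99 counts in all, with values between 0 and 2.45 CPM, while the annotated copy Mpc1-ps had 2264. Of Mpc1's 50-base stretches 11.0% occur in Mpc1-ps, which rose at 3 weeks by 0.93 ± 0.15 on the log2 scale (adjusted p = 0.0007) against naive mice. Since the counting could divide reads between these loci, the level of Mpc1 is uncertain. The catalytic subunits of pyruvate dehydrogenase itself were not called in any comparison. Pdha1 lay between 23.9 and 33.2 CPM, Pdhb between 14.6 and 18.1 CPM, Dlat between 4.34 and 7.60 CPM and Dld between 9.74 and 14.0 CPM over the 6 libraries. Of Pdhb's 50-base stretches 10.8% occur in Gm6123, whose counts were not used here, so the level of Pdhb is uncertain as well. Pdha1 overlaps Map3k15 on the opposite strand, and no source used here gives the strand setting of the counting. Pdp1, the phosphatase that reactivates the complex, lay between 0.327 and 1.27 CPM and Pcx between 0.310 and 0.737 CPM, both near the floor.

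From citrate to 2-oxoglutarate, 2 of 8 genes (25.0%) were called higher at 3 weeks against naive mice, beside 12.0% of all genes. None was called in the other comparisons by edgeR or DESeq2. In each of these other comparisons, 2 had an unadjusted p under 0.05, Acly and Idh3b at 1 week and Idh2 and Idh3g at 3 weeks against 1 week. The share of all genes under that unadjusted threshold is not given here. Cs, citrate synthase, which joins acetyl-CoA to oxaloacetate (chr10:128337734-128362479), had 22.9 and 23.2 CPM in naive mice, 25.6 and 29.2 CPM at 1 week, and 33.4 and 32.0 CPM at 3 weeks. The groups did not overlap, with 1 week between the others, and the log2 fold change at 3 weeks was 0.51 ± 0.14 (adjusted p = 0.0184). The call was lost without naive library 1 (adjusted p = 0.109), naive library 2 (0.0662) or 3-week library 1 (0.0751). Acly, the cytosolic enzyme that splits citrate back to acetyl-CoA (chr11:100476353-100528000), had 50.6 and 50.2 CPM in naive mice, 61.3 and 65.2 CPM at 1 week, and 66.2 and 62.4 CPM at 3 weeks. Both tumor-bearing groups were above the naive libraries and overlapped each other. At 3 weeks it was higher by 0.35 ± 0.12 on the log2 scale, with an adjusted p of 0.0499, and leaving out any 1 library brought it to between 0.101 and 0.196.

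The other 6 genes of this stretch were called in no comparison. Idh1, the cytosolic NADP-dependent isocitrate dehydrogenase, lay between 76.5 and 93.5 CPM, and Idh2, its mitochondrial counterpart, between 9.02 and 13.8 CPM. Of the NAD-dependent enzyme, Idh3b had 12.5 CPM in both naive libraries, 17.8 and 18.4 CPM at 1 week, and 16.3 and 15.2 CPM at 3 weeks. Its groups did not overlap, but no difference passed the test. It ends on Nop56 on the opposite strand, and the loci share only the bases chr2:130279309-130279313. Nop56 fell at 3 weeks against naive mice by 0.64 ± 0.20 on the log2 scale (adjusted p = 0.0358), a call lost when either naive or either 3-week library was left out. Idh3g lay between 34.4 and 52.4 CPM and Idh3a between 1.04 and 3.49 CPM. Aco1, the cytosolic aconitase and iron regulatory protein, lay between 2.98 and 6.13 CPM. The sum over these 8 genes was between 213 and 224 CPM in naive mice, between 236 and 237 CPM at 1 week and between 262 and 272 CPM at 3 weeks, in groups that did not overlap.

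From 2-oxoglutarate to oxaloacetate, the most abundant member dipped at 1 week. Mdh2 (chr5:135778480-135790398) had 734 and 604 CPM in naive mice, 472 and 489 CPM at 1 week, and 703 and 705 CPM at 3 weeks. Both 1-week libraries lay below all others, and the 3-week libraries lay inside the naive range. The log2 fold change was -0.48 ± 0.12 (adjusted p = 0.0268) at 1 week against naive mice and 0.55 ± 0.12 (adjusted p = 0.00481) at 3 weeks against 1 week. The first call was lost without naive library 1 (adjusted p = 0.202), 1-week library 1 (0.174) or 1-week library 2 (0.129), and the other without 1-week library 1 (0.0646). Mdh2 held between 30.6% and 42.0% of the summed CPM of the 33 members. Mdh1, the cytosolic malate dehydrogenase, lay between 22.8 and 27.7 CPM and was called in no comparison.

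Suclg1, the alpha subunit of succinyl-CoA ligase (chr6:73248382-73276911), had 41.6 and 48.7 CPM in naive mice, 59.2 and 53.0 CPM at 1 week, and 66.3 and 67.1 CPM at 3 weeks. The groups stood apart in that order, and the log2 fold change at 3 weeks against naive mice was 0.56 ± 0.13 (adjusted p = 0.00741), a call lost without naive library 1 (adjusted p = 0.0986). Its beta subunits were not called: Sucla2, of the ADP-forming enzyme, lay between 20.8 and 28.8 CPM, and Suclg2, of the GDP-forming enzyme, between 2.95 and 5.51 CPM. Of Suclg2's 50-base stretches 16.0% occur in Gm15163, which had 9 counts in all. Fh1, fumarate hydratase (chr1:175600374-175625635), had 3.56 and 5.08 CPM in naive mice, 5.81 and 6.79 CPM at 1 week, and 2.79 and 4.08 CPM at 3 weeks. The 1-week libraries were highest, and naive and 3-week libraries overlapped. Its fall from 1 week to 3 weeks was -0.87 ± 0.29 (adjusted p = 0.0493), and was lost without 1-week library 1 (adjusted p = 0.0889), 1-week library 2 (0.205) or 3-week library 1 (0.272). Fh1 had 374 counts in all and overlaps Kmo, which had 85, on the opposite strand. Ogdh and Dlst, the dehydrogenase and acyltransferase of the 2-oxoglutarate dehydrogenase complex, lay between 36.7 and 46.2 CPM and between 58.2 and 78.4 CPM. Me2, the mitochondrial malic enzyme that turns malate into pyruvate, lay between 7.52 and 11.8 CPM. None of these 3 was called.

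The branched-chain ketoacid dehydrogenase, which feeds leucine, isoleucine and valine carbon towards the cycle, had subunits that moved in opposite directions at 3 weeks against naive mice. Dbt (chr3:116513070-116549981) had 39.6 and 32.8 CPM in naive mice, 13.4 and 11.3 CPM at 1 week, and 22.6 and 22.3 CPM at 3 weeks. The 3 groups were far apart, with 1 week lowest. The 1-week libraries were 2.94-fold lower than the naive ones, or -1.55 ± 0.16 on the log2 scale (adjusted p = 0.000135). At 3 weeks Dbt was still lower than in naive mice, at -0.69 ± 0.15 (adjusted p = 0.00581), and higher than at 1 week, at 0.87 ± 0.16 (adjusted p = 0.00169). Only the call of 3 weeks against naive mice was lost without a library, naive library 1 (adjusted p = 0.0615).

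Bckdha, the alpha subunit of the decarboxylase of the same complex (chr7:25629946-25658981), had 5.22 and 4.42 CPM in naive mice, 5.81 and 7.23 CPM at 1 week, and 8.92 and 12.2 CPM at 3 weeks. The groups rose in that order without overlap. The log2 fold change at 3 weeks was 1.13 ± 0.24 (adjusted p = 0.00464) against naive mice and 0.69 ± 0.23 (adjusted p = 0.0447) against 1 week. The latter was lost without naive library 1 (adjusted p = 0.0624), 1-week library 1 (0.257), 1-week library 2 (0.0861) or 3-week library 2 (0.296), and in all it held under 5 of 14 alternatives, both DESeq2 fits being among those that lost it (adjusted p = 0.117 and 0.123). Bckdha overlaps B3gnt8 on the opposite strand, which had 1159 counts to Bckdha's 577 and fell at 3 weeks by 1.16 ± 0.17 on the log2 scale against naive mice (adjusted p = 0.000436), opposite to Bckdha, and without a strand setting their reads cannot be told apart where they overlap. Bckdhb, the beta subunit, lay between 0.231 and 1.55 CPM, with 63 counts in all, and was not called.

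**Figure D3:**
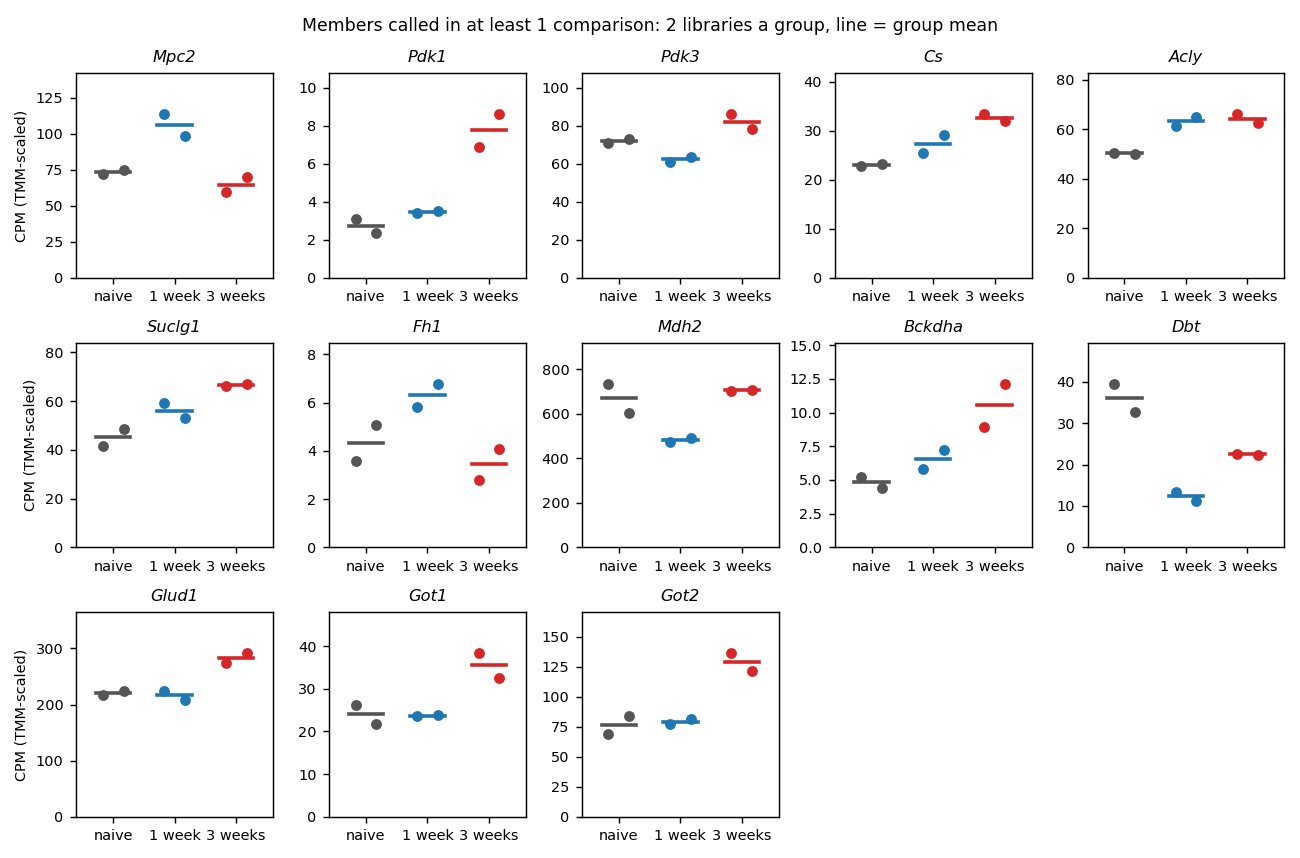
TMM-scaled CPM of the 13 genes called in at least 1 comparison, each panel with its own axis from 0. Points are the 2 libraries of a group and lines their mean; Got1, Got2, Glud1 and Pdk1 are highest at 3 weeks, Mdh2, Pdk3 and Dbt lowest at 1 week, and Mpc2 and Fh1 highest at 1 week.

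Levels of different genes were compared per kilobase of exon. The length is that of all annotated exons of a gene joined, not of the transcripts expressed, so differences between genes are approximate. In naive mice Mdh2 stood highest at 188 ± 25.8 CPM per kilobase (SD, n = 2), at the 98.0 percentile of tested genes, followed by Glud1 at 52.5 ± 1.14, Idh1 at 28.9 ± 1.50, Pdk3 at 28.1 ± 0.606 and Got2 at 15.8 ± 2.18. Idh1 and Pdk3 differed by less than their spread. Citrate synthase stood at 3.98 ± 0.0364, and the complex subunits Pdha1, Dlst and Ogdh at 7.08 ± 0.958, 7.16 ± 0.376 and 7.60 ± 1.24, which overlapped. Within complexes the subunits were unequal in level by this measure. In naive mice Dbt was at 10.8 ± 1.42, Bckdha at 2.54 ± 0.299 and Bckdhb at 0.376 ± 0.212, and Idh3g was at 13.2 ± 0.653, Idh3b at 3.66 ± 0.00454 and Idh3a at 0.342 ± 0.0418. At 1 week Dbt was at 3.68 ± 0.441 and Bckdha at 3.43 ± 0.531, which overlapped. At 3 weeks Dbt was at 6.71 ± 0.0731 and Bckdha at 5.55 ± 1.203. In both tumor-bearing groups they were thus closer in level than in naive mice.

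**Figure D4:**
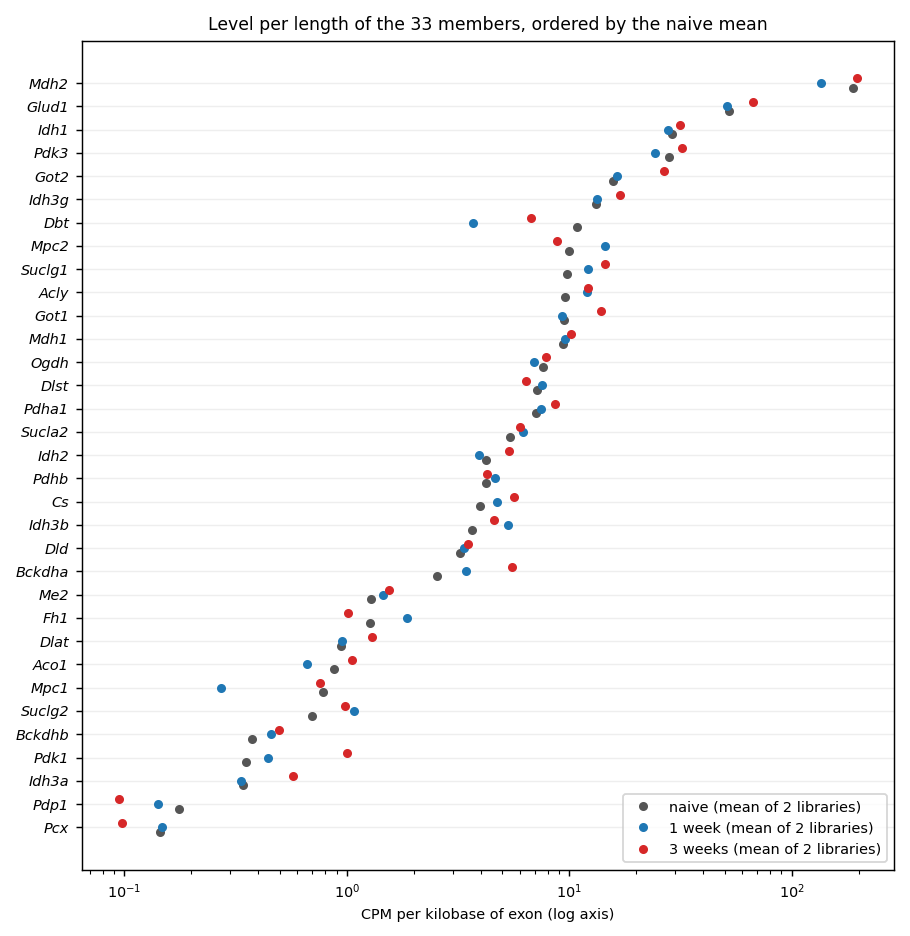
Level of the 33 genes as CPM per kilobase of exon on a log axis, ordered by the naive mean, with 1 point for the mean of the 2 libraries of each group. Mdh2 stands at 188, 135 and 198 in naive, 1-week and 3-week mice; Dbt moves left at 1 week and Pdk1 moves right at 3 weeks.

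Of 77 other genes of the same pathways, 64 were tested, and they gave fewer calls at 1 week than at 3 weeks, as did all genes. At 1 week edgeR and DESeq2 called none higher, 7 being higher at an unadjusted p under 0.05. The share of all genes under that unadjusted threshold is not given here, so the 7 are not read as a rise. By edgeR 4 (6.25%) were called lower, and fewer when some single libraries were left out. Over all genes 4.23% were called higher and 3.76% lower at the adjusted threshold. Acod1, which makes itaconate from cis-aconitate, had 35.6 and 35.0 CPM in naive mice, 15.3 and 19.2 CPM at 1 week, and 45.8 and 40.2 CPM at 3 weeks, and fell at 1 week by 1.04 ± 0.15 on the log2 scale (adjusted p = 0.00175). Slc25a20, the acylcarnitine carrier, fell by 0.84 ± 0.20 (adjusted p = 0.0221), a call lost without naive library 1 (0.142), naive library 2 (0.0872), 1-week library 1 (0.0621) or 1-week library 2 (0.155). Cpt1a, which commits fatty acids to mitochondrial oxidation, fell by 0.59 ± 0.16 (adjusted p = 0.0443), a call lost without naive library 1 (0.303), 1-week library 1 (0.216) or 1-week library 2 (0.152).

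At 3 weeks against naive mice 11 of the 64 (17.2%) were called higher and 2 (3.1%) lower, beside 12.0% and 9.42% over all genes. These 13 calls became fewer when some single libraries were left out. Ldha, a lactate dehydrogenase subunit that takes pyruvate away from the mitochondria, had 278 and 279 CPM in naive mice, 267 and 290 CPM at 1 week, and 499 and 562 CPM at 3 weeks, a rise of 0.93 ± 0.11 (adjusted p = 9.88e-05). Among succinate dehydrogenase subunits Sdhd rose by 1.79 ± 0.28 (adjusted p = 0.000565) and Sdhb by 0.65 ± 0.12 (adjusted p = 0.00202). Auh, of leucine breakdown, rose by 1.11 ± 0.14 (adjusted p = 0.000154), Acadl, a long-chain acyl-CoA dehydrogenase, by 1.097 ± 0.15 (adjusted p = 0.000214), and D2hgdh, which oxidises D-2-hydroxyglutarate, by 0.84 ± 0.18 (adjusted p = 0.00539). These 6 calls held without any 1 library.

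At 3 weeks against 1 week 12 of the 64 (18.8%) were called higher and 3 (4.69%) lower, beside 12.9% and 9.57% over all genes. The 6 with the smallest adjusted p all rose: Acod1 by 1.32 ± 0.15 (adjusted p = 4.51e-05), Ldha by 0.93 ± 0.11 (8.38e-05), Auh by 1.15 ± 0.14 (9.67e-05), Cpt1a by 1.23 ± 0.16 (0.000148), Slc25a20 by 1.39 ± 0.20 (0.000252) and Sdhd by 1.66 ± 0.27 (0.000776). Acod1, Cpt1a and Slc25a20 were thus lower at 1 week than in naive mice and higher at 3 weeks than at 1 week, as Mdh2 and Dbt were among the members, although Dbt, unlike these 3, stayed below the naive libraries at 3 weeks.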

How the data were processed

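RNA of BM Ly6G+ cells was measured in 6 libraries (3 groups of 2). According to the study's methods and the submitters' processing notes, the authors made total RNA libraries, sequenced single-end reads, and estimated expected counts per gene with RSEM (the notes name version 1.2.31 and Bowtie2, the methods an earlier version) against mm10 and Ensembl. The deposited expected counts are whole numbers, not scaled between libraries. The read length and the number of samples per group differ between the sources, and the labels' 2 libraries were used.

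Symbols and exon lengths came from GENCODE M21 (37570 of 38887 identifiers matched). Counts were filtered by filterByExpr (12259 genes kept), scaled by TMM (factors 0.913 to 1.07) and tested by the quasi-likelihood test of edgeR 4.0.16 in R 4.3.3, all 6 libraries in 1 model, with Benjamini-Hochberg adjustment over all genes and a threshold of 0.05. SE is the log2 fold change over the root of its F statistic. The test was also run on simulated data, whose outcome is not given here and did not enter the calls. Named were every member, called genes of the wider list (at most the 6 with the smallest adjusted p per comparison) and genes that share reads with a member. Alternatives were DESeq2 1.42.0, other scaling, filters and sample sets, a replicate block, a fold threshold of 5 and leaving out each library. The members and lists were chosen with earlier results of these data known. Shared sequence was counted as identical 50-base stretches of annotated transcripts. RPKM values and the authors' comparisons were not used here. The values of 1 gene of the wider list are not reported here.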

Additional observations from a re-analysis of the deposited data

Results flagged for a closer look

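For 6 members the log2 fold change against naive mice had opposite signs at 1 week and at 3 weeks, and the difference between these effects, which is 3 weeks against 1 week in edgeR's quasi-likelihood test, passed the threshold. It was -0.71 for Mpc2 and -0.87 for Fh1, which were higher at 1 week, and 0.40 for Pdk3, 0.55 for Mdh2, 0.38 for Glud1 and 0.58 for Got1, which were higher at 3 weeks. At 1 week Glud1 and Got1 differed little from naive mice (-0.03 ± 0.11 and -0.02 ± 0.15), and at 3 weeks Mdh2 differed little from them (0.07 ± 0.12), so the opposite signs of these 3 rest on values near 0. Mpc2 was not called at 3 weeks against naive mice (-0.18 ± 0.13), and Pdk3 and Fh1 were called against naive mice at neither time. None of the 6 was called against naive mice at both times. Mpc2 at 3 weeks against 1 week is the 1 of these 6 differences that held under all 14 alternatives. Groups of 2 libraries were too small to look for a library that stood apart from its group.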

How the results depend on the processing

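Of the 22 calls of members, 7 held under all 14 alternatives (Dbt at 1 week, Pdk1, Bckdha and Got2 at 3 weeks against naive mice, and Mpc2, Dbt and Got2 at 3 weeks against 1 week), Acly at 3 weeks against naive mice held under 1, Glud1 at 3 weeks against naive mice under 3 and Bckdha at 3 weeks against 1 week under 5. Scaling by library size alone moved the median of all genes to 0.07, -0.11 and -0.22 on the log2 scale in the 3 comparisons (1 week and 3 weeks against naive mice, 3 weeks against 1 week). It gave 2 members higher and 1 lower at 1 week, 4 higher at 3 weeks against naive mice with a median of 0.14 and 8 wider genes, and 3 higher at 3 weeks against 1 week with a median of 0.030. Relative to all genes the members' medians at 3 weeks were then 0.25 in both comparisons, as in the results given (0.25 and 0.26). It turned Glud1 (0.024) and Got1 (0.032) at 1 week, Mdh2 at 3 weeks against naive mice (-0.080) and Acly at 3 weeks against 1 week (-0.18); without a low-count filter the last was -0.0049. None of these directions was called. DESeq2 on the groups compared gave 4 members higher at 3 weeks against naive mice, and DESeq2 on those groups or on all 6 libraries gave 1 lower at 3 weeks against 1 week. With a fold over 5 added, 0 members and 0 wider genes were called in any comparison.

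Without 1 library, 0 to 1 members were higher and 1 to 2 lower at 1 week, with 1 to 5 wider genes and a median from -0.031 to 0.11. At 3 weeks against naive mice 4 to 6 were higher and 0 to 1 lower, with 7 to 13 wider genes and a median from 0.15 to 0.34. At 3 weeks against 1 week 3 to 8 were higher and 1 to 2 lower. At 1 week Glud1 lay between -0.086 and 0.016, Got1 between -0.15 and 0.12 and Got2 between -0.081 and 0.20. Mdh2 at 3 weeks against naive mice lay between -0.053 and 0.19, and Acly at 3 weeks against 1 week between -0.046 and 0.076. With a replicate block, 6 members were higher at 3 weeks against naive mice, without Acly and Glud1, and the other member counts were equal. The correlation of deviations between libraries with the same number was 0.010, 0.036 and 0.038, so the numbers were not taken to pair libraries. The causes were not tested. With 2 libraries a group, members near the floor, such as Pdp1, Pcx and Bckdhb, allow no statement on small changes.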
